A study of Mus musculus with 40 samples.

Results

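The Hox genes of the mouse lie in 4 clusters, HoxA on chromosome 6, HoxB on chromosome 11, HoxC on chromosome 15 and HoxD on chromosome 2. Every CpG cytosine listed within a fixed window around each cluster was taken, at chr6:52100000-52215000, chr11:96050000-96235000, chr15:102740000-102875000 and chr2:74490000-74610000 on the mm9 build (NCBIM37). The windows held 1530 of the 400298 listed CpG cytosines, 391 in HoxA, 367 in HoxB, 313 in HoxC and 459 in HoxD. Of these, 1076 were covered by 10 reads or more in 36 or more mice and are called tested here, out of 262317 in the whole table. The windows held 39 annotated Hox genes, 29 of them with tested CpGs in the promoter, taken from 1000 bp upstream to 500 bp downstream of any annotated start.

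DNA methylation was measured by reduced representation bisulfite sequencing (RRBS) in whole liver of male C57BL/6 mice (C57BL/6J in the study's methods) killed at 9 weeks of age. RRBS cuts DNA with the enzyme MspI at CCGG and reads the fragment ends after bisulfite has converted unmethylated cytosines, so that the share of unconverted reads at a CpG gives its methylation level. Dams ate a low fat (LF) or a high fat (HF) diet from before mating until weaning, and each male offspring was then fed LF or HF, which gave 4 groups of 10 animals. The groups are written maternal diet first, so that LF_HF stands for animals born from LF fed dams and fed HF after weaning, beside LF_LF, HF_LF and HF_HF. The maternal diet covered the time before mating, gestation and lactation together, and the effects of these periods cannot be told apart. Labels did not tie mice to litters, cages or sequencing lanes, so p-values measure the spread between these mice only, and the share of each cell type of the liver in a value was not tested.

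Hox genes encode homeodomain transcription factors that give cells of the embryo their position along the body axis. Within a cluster the genes stand in the order in which they are used from head to tail, and each gene has counterparts, its paralogs, in the other clusters. In tissues that do not use them the clusters are classic targets of Polycomb repression, which acts through a histone mark, and their CpG-rich DNA is known to carry little DNA methylation.

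The sequences below, read on the plus strand of NCBIM37, show what the measured CpGs stand in. Capitals mark the CpG sites with listed values and lower case the other bases. The first is the most methylated pair of CpGs of all 4 clusters, an intergenic stretch of HoxB at chr11:96092609-96092651, and the next, at chr11:96054096-96054204, holds the methylated CpGs upstream of Hoxb13. The stretches upstream of the nearest start of Hoxa6 at chr6:52159424-52159660 and of Hoxd4 at chr2:74559856-74559915 belong to the bins with the highest mean of HoxA and HoxD. The densest run of weakly methylated CpGs is in the coding exon of Hoxa2 at chr6:52114348-52114477. The last stretches carry the CpG with the smallest p-value between diets, in Hoxa5 at chr6:52154151-52154315, and that with the largest difference in percent methylation, in the coding exon of Hoxb3 at chr11:96205807-96206019.
HoxB most methylated pair: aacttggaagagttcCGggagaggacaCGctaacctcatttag
Upstream of Hoxb13: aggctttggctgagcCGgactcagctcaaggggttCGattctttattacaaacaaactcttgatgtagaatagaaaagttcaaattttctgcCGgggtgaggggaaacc
Upstream of Hoxa6: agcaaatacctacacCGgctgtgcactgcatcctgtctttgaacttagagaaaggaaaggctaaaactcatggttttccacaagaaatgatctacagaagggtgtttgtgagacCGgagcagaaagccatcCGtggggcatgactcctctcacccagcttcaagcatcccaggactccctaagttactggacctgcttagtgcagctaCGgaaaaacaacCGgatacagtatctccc
Upstream of Hoxd4: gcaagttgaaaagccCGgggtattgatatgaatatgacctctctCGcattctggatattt
Hoxa2 coding exon: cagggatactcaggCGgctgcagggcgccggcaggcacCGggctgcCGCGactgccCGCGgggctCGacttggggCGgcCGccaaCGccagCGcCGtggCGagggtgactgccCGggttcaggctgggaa
Hoxa5: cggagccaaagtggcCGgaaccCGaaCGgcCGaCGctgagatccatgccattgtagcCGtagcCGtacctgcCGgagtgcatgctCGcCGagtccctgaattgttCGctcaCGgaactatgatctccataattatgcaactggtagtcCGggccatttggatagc
Hoxb3 coding exon: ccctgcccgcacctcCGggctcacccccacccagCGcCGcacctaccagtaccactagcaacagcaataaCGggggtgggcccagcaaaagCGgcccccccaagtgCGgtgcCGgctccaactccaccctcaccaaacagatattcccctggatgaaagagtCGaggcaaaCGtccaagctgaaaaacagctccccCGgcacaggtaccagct

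The first 4 stretches hold few CpGs in long runs of other bases, while the Hoxa2 stretch packs 14 measured CpG sites into 130 bp. In the HoxB pair the cytosines at bases 16 and 28 had a mean methylation of 78.6% ± 11.6 and 82.6% ± 8.5 (SD, n = 40 mice). In the Hoxa2 stretch the 18 listed cytosines had means between 0.505% and 8.19%. The measured CpGs all lay within 47 bp of a CCGG, a median of 14 bp away, and RRBS listed 4.85% to 6.95% of the CpG cytosines of a window, so most of each cluster was not measured.

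Reads at listed CpGs summed to 2969907 to 23345592 per mouse (median 9245709.5), and a tested Hox CpG had a median of 12 to 60 reads in a mouse. Between 0 and 36.4% of the tested Hox CpGs had no value in a mouse (median 0.836%). A value resting on the minimum of 10 reads moves in steps of 10%, and the depth therefore limited what could be seen at single CpGs. The SD between the 40 mice had a median of 5.37 percentage points over the tested Hox CpGs, against 4.82 from counting reads alone, which treats each read as a separate molecule. Where both strands of a CpG were tested, at 49 sites, their means differed by a median of 1.19 and at most 4.74 percentage points.

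The Hox clusters were weakly methylated along nearly their whole measured length. Mean methylation was 7.32% over the 1076 tested CpGs (median 5.28%), and 848 of them (78.8%) lay below 10%. Another 223 (20.7%) lay between 10% and 50%, 5 lay between 50% and 90%, and 0 reached 90%. Of the 261241 CpGs elsewhere, 53.8% lay below 10%, 8.39% between 10% and 50%, 19.9% between 50% and 90% and 17.9% at 90% or above. The Hox clusters thus held a larger share of weak to intermediate levels and no fully methylated CpG. The mean over tested Hox CpGs ran from 6.80% to 8.65% in a mouse (median 7.26%), and from 34.6% to 36.1% over the other CpGs, lower in Hox in 40 of 40 mice.

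HoxA and HoxB had the higher means, 8.40% and 8.41%, and HoxC and HoxD the lower ones, 6.69% and 5.89%. The share of CpGs below 10% was 71.2% in HoxA, 74.5% in HoxB, 81.9% in HoxC and 86.8% in HoxD. The level was low in every class of annotation. CpGs in the promoter of any gene of the windows averaged 6.76%, exon CpGs 7.37%, intron CpGs 7.49% and intergenic CpGs 9.16%. In the rest of the table promoters averaged 7.87%, but exons 55.8%, introns 58.1% and intergenic CpGs 61.7%. Of the CpGs in Hox exons, 214 in coding parts averaged 6.90% and 49 in untranslated parts 10.9%, of which the 10 of HoxA averaged 25.9%.

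The window edges separated the clusters from methylated DNA on some sides. Within 100000 bp below the HoxA window 8 CpGs averaged 91.3%, and below the HoxC window 9 CpGs averaged 83.1%. Above the HoxA window 48 CpGs averaged 6.08%, which was within the range of the clusters. The HoxB flanks averaged 48.3% (33 CpGs) and 56.9% (18 CpGs), and the HoxD flanks 21.4% (9 CpGs) and 4.02% (7 CpGs). The upper HoxC flank, with 50 CpGs, averaged 18.4%.

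**Figure D1:**
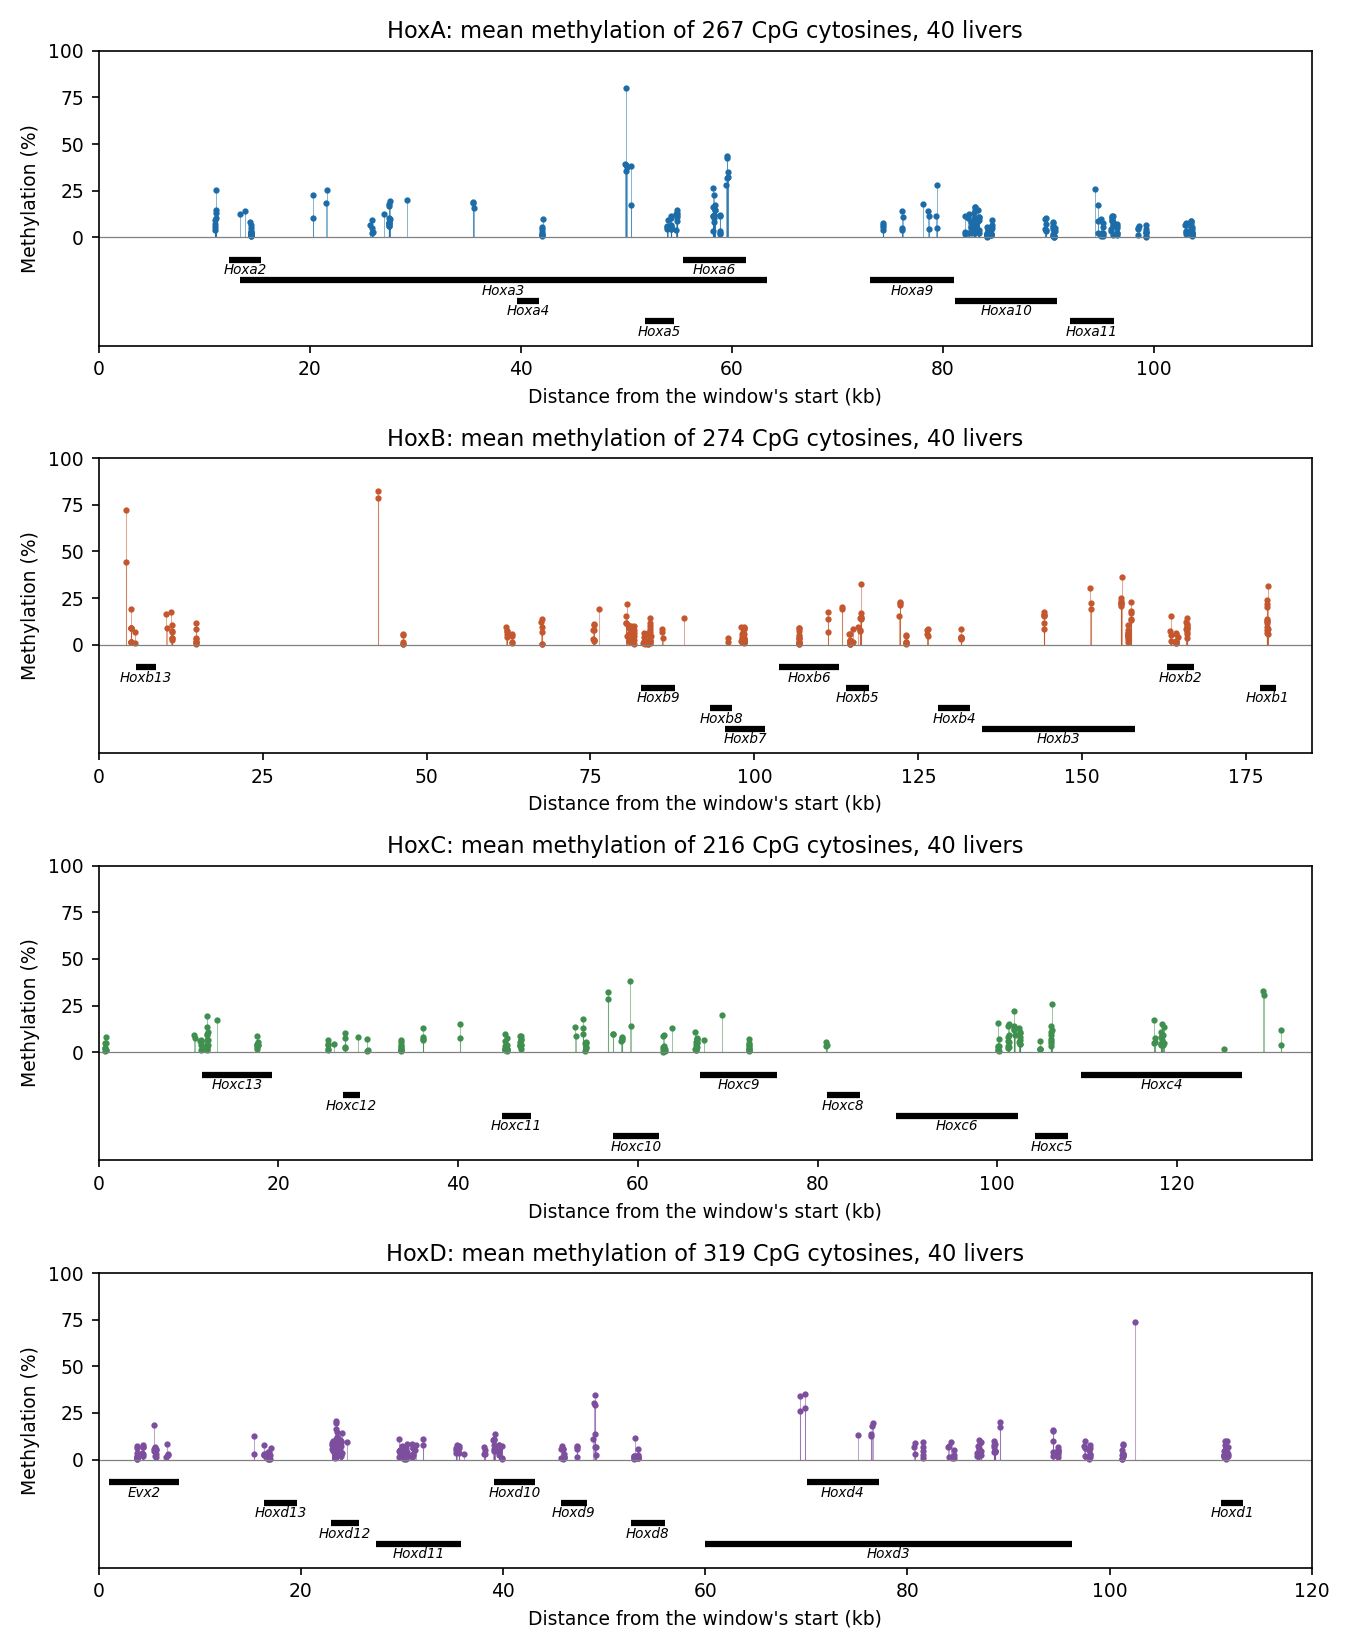
Mean methylation (%) of each tested CpG cytosine (points, mean of up to 40 livers) against the distance from the start of the window (kb) in HoxA, HoxB, HoxC and HoxD, with black bars for the annotated extent of the Hox genes with tested CpGs and of Evx2. Nearly all points lie under 25%, and the 5 points above 50% stand in HoxA (1), HoxB (3) and HoxD (1).

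The 5 CpGs above 50% stood alone or in a pair, and there was no run of at least 3 neighbouring CpGs at that level. The HoxB pair lay between Hoxb13, a gene of the tail end and the prostate, and Hoxb9, 37006 bp downstream of the Hoxb13 start. Its CpG at chr11:96092636 ranged from 55.0% to 97.1% between mice (median 83.3%), and that at chr11:96092624 from 52.9% to 100% (median 80.9%). The CpG at chr11:96054111, 1519 bp upstream of Hoxb13, had 72.1% ± 10.9 (SD, n = 37). Further along the printed stretch the level was lower at each CpG, 44.1% ± 11 at chr11:96054131 and 22.2% ± 10.2 at chr11:96054189, the last covered in 35 mice only. In HoxA the CpG at chr6:52149961 had 79.9% ± 7.74 (SD, n = 40; range 63.3% to 92.9%). It lay in an untranslated part of the long Hoxa3 transcripts, 4625 bp downstream of the Hoxa5 start. The CpG nearest to it on each side had 39.4% and 38.5%. In HoxD the CpG at chr2:74592502, in the promoter of the non-coding gene 6720416L17Rik and 8535 bp upstream of Hoxd1, had 73.8% ± 12 (SD, n = 38).

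Averaged over bins of 1000 bp with at least 3 tested CpGs, of which there were 114, the highest level was found upstream of the nearest start of Hoxa6. That HoxA bin, centred on the printed stretch, had 35.6% ± 6.26 (SD over mice), with 22.8%, 36% and 49.3% in the lowest, median and highest mouse. The highest bin of HoxD lay upstream of Hoxd4 with 30.9% ± 8.61, from 14.8% to 52.3%. That of HoxB lay 982 bp upstream of Hoxb3 with 24.0% ± 6.33, from 16% to 42.9%, and that of HoxC 3753 bp upstream of Hoxc10 with 12.5% ± 4.38. In each cluster the highest bin thus lay upstream of the nearest annotated Hox start, which can be 1 of several starts of a gene. The printed Hoxa6 stretch lies within the annotated extent of Hoxa6 and of Hoxa3, and the Hoxd4 stretch within that of Hoxd3. The lowest bins were near Hoxa4 with 2.20% ± 1.69, near Hoxd8 with 1.28% ± 1.25, near Hoxc5 with 2.87%, and in HoxB at chr11:96173000-96173999 with 2.30% ± 1.40. The largest spread between mice was seen in the Hoxb3 coding exon bin (SD 8.74, mean 22.6%, range 7.85% to 47.7%), the bin of the Hoxa3 promoter (SD 8.32, mean 17.8%), the Hoxd4 bin (SD 8.61) and, in HoxC, the bin at chr15:102846000-102846999 (SD 4.56, mean 10.3%).

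Hox promoters ranged from 1.81% to 27.3% with a median of 5.08% over 29 genes, and 22 of them lay below 10%. The highest was that of Hoxd4, a gene of the hindbrain and neck, with 27.3% ± 6.78 (SD over mice, 5 CpGs). It ranged from 15.9% to 43.6% between mice with a median of 27.2%. Hoxb3 had 20.8% ± 7.58 (2 CpGs), Hoxc10, used in the hindlimb part of the spinal cord, 20.1% ± 5.66 (4 CpGs), and Hoxb5 19.7% ± 8.81 (2 CpGs). Hoxa3, needed for the thymus and parathyroid, had 17.8% ± 8.32 (3 CpGs). Hoxa6 was the only gene among the 6 highest with many CpGs, 24 of them, and had 17.7% ± 2.47. Its CpGs ranged from 1.6% to 43.4%, so that levels within this promoter covered the whole range of the promoter means and went beyond it.

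Most other promoters held more CpGs and were measured with a smaller spread. Hoxa10, a gene of the reproductive tract, had 4.98% ± 0.722 over 61 CpGs, and no mouse was above 7.19%. Hoxd11, which shapes the forearm, had 3.38% ± 0.759 over 40 CpGs. Hoxd13, a gene of the digits, had 2.43% ± 1.08 over 17 CpGs, and Hoxb9, active in the thorax, 1.98% ± 1.21 over 8. The ranges over mice of Hoxa10 (3.39% to 7.19%) and Hoxa6 (10.7% to 24.6%) did not meet, while those of Hoxd11 (1.91% to 4.83%) and Hoxb5 (3.85% to 50%) did.

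Among the anterior genes of paralog groups 1 to 3, promoters of 4 of 8 genes were measured, with 3.86% in Hoxd1 and 5.14% in Hoxd3 beside Hoxa3 and Hoxb3 above. In the middle groups 4 to 8, which pattern the neck and trunk, promoter means of 10 of 15 genes had a median of 4.34%. They were 8.71% in Hoxa5, a gene of the lung and respiratory tract, 4.38% in Hoxc6, 4.31% in Hoxc8, 3.41% in Hoxa4, 2.57% in Hoxb7, 2.39% in Hoxd8 and 1.81% in Hoxc4 (1 CpG). In the posterior groups 9 to 13, 15 of 16 genes had a median of 5.08%. Hoxa9, a gene used in blood progenitors, had 10.5%, Hoxd12 8.96%, Hoxd10 6.71%, Hoxa11, another gene of the reproductive tract, 6.46%, Hoxb13 6.24%, Hoxc12 5.82%, Hoxc9 5.08%, Hoxc13, a gene of the hair follicle, 4.79%, Hoxc11 3.68% and Hoxd9 3.03%. The anterior genes had a median of 11.5% over their 4 promoters, but the 3 ranges overlapped (3.86% to 20.8%, 1.81% to 27.3% and 1.98% to 20.1%) and the groups were not tested against each other.

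The promoters of Hoxa2, Hoxa7, Hoxa13, Hoxb1, Hoxb2, Hoxb4, Hoxb6, Hoxb8 and Hoxc5 had no tested CpG. Gene bodies covered 7 of these genes. Hoxb1, which patterns the hindbrain, averaged 14.4% over 13 body CpGs, Hoxc5 8.05%, Hoxb2 6.68%, Hoxb6 5.34%, Hoxb4 4.37%, Hoxa2 4.0% and Hoxb8 2.57%. The Hoxb8 value rests on 2 CpGs with the same mean and range (1.38% to 3.76%) as the 2 CpGs of the Hoxb7 promoter, which overlaps Hoxb8. It is therefore not a separate measurement. Hoxa7 and Hoxa13 had 0 tested CpGs in the body as well, and were not measured. Evx2, the homeobox gene beyond the posterior end of HoxD, had 4.23% over 29 body CpGs.

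**Figure D2:**
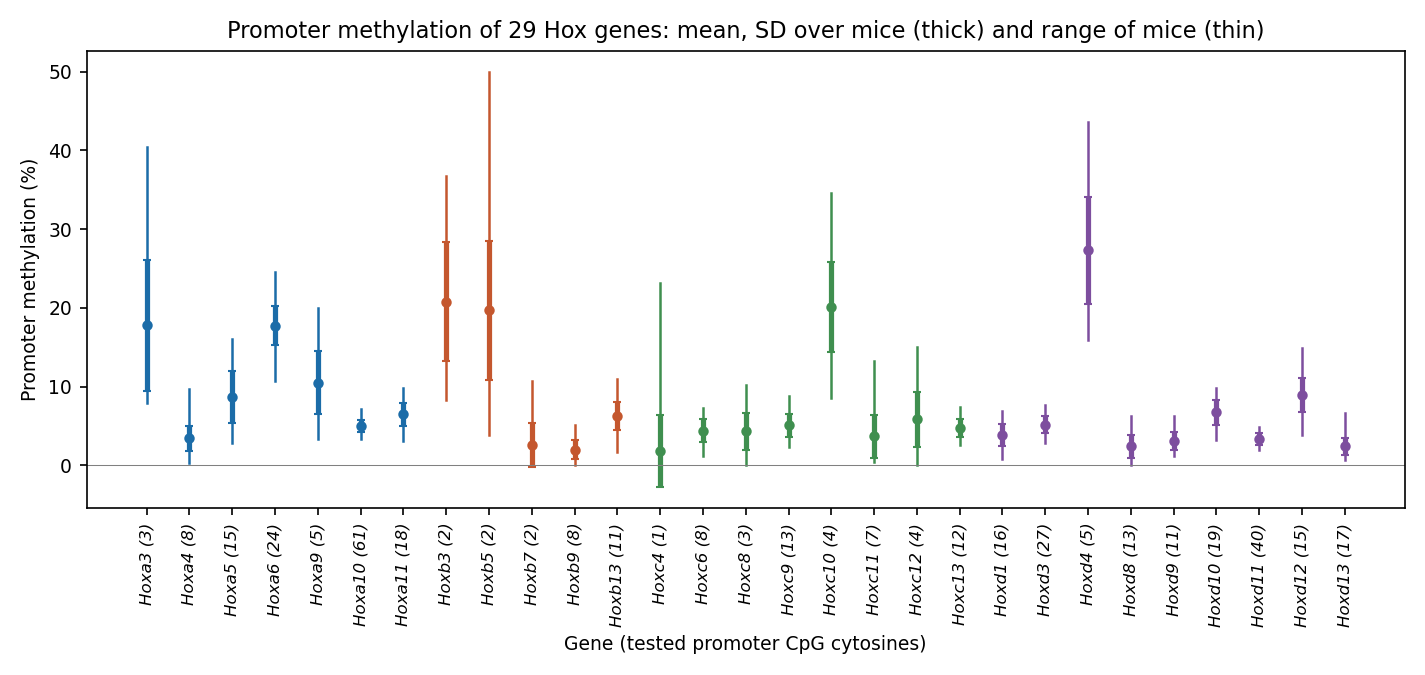
Mean promoter methylation (%) of the 29 Hox genes with tested promoter CpGs, with the SD (thick bars) and the range (thin bars) over mice, and the number of tested CpG cytosines in brackets. Hoxd4, Hoxb3, Hoxc10, Hoxb5, Hoxa3 and Hoxa6 lie between 17.7% and 27.3%, and the others at 10.5% or below.

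Over the 4 clusters together, CpG density ran against methylation. The 6 highest promoters lay at 1.40 to 4.27 CpGs per 100 bp, and the other 23 at 3.53 to 13.7. Spearman's rho between density and methylation was -0.442 across the 1076 tested CpGs and -0.732 across the 29 promoters, as a description, since neighbouring CpGs share reads and neighbouring promoters can overlap. Split by density into 4 sets of 269 CpGs, the means were 12.8%, 7.24%, 5.68% and 3.56% from the sparsest to the densest. Split in the same way within each cluster, the means fell at every step in HoxA (15.4% to 3.63%) and HoxD (10.3% to 3.36%). In HoxB the third set, with 9.38%, lay above the second, with 6.70%, and in HoxC these were 5.51% and 5.31%, so the fall was not steady in these clusters.

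Set beside CpGs of the same density elsewhere in the table, Hox CpGs were lower in sparse DNA, and in dense DNA they were higher in promoters and lower outside them. Below 2 CpGs per 100 bp, 44 Hox CpGs averaged 23.9% and the others 78.0%. At 2 to 4 CpGs per 100 bp the means were 10.8% (199 Hox CpGs) and 67.1%, and in each of these 2 classes Hox was lower in 40 of 40 mice. At 4 to 6 the Hox mean was 7.32% against 24.8%, but the Hox median, 6.28%, lay above that of the others, 5.50%. At 6 to 8 the means were nearly equal, 5.91% and 5.96%, with medians of 4.80% and 1.06%. At 8 to 10 the means were 3.95% and 3.18%, and Hox was higher in 39 of 40 mice. At 10 or more they were 3.21% and 2.19%, with medians of 2.28% and 0.497%, and Hox was higher in 40 of 40 mice. In promoters of at least 8 CpGs per 100 bp, 198 Hox CpGs had 2.64% to 4.37% in a mouse (median 3.48%), against 1.80% to 1.96% (median 1.90%) over 68787 others, with no overlap. Outside promoters at the same density, 111 Hox CpGs had 2.06% to 5.14% (median 3.71%), against 5.34% to 6.15% (median 5.75%) over 15062 others, and Hox was lower in 40 of 40 mice. There the Hox medians over CpGs were nevertheless the higher ones, 3.09% against 1.57% at 8 to 10 CpGs per 100 bp and 3.77% against 0.956% at 10 or more. Bisulfite conversion was not measured here, and its part in levels of a few percent was not tested.

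**Figure D3:**
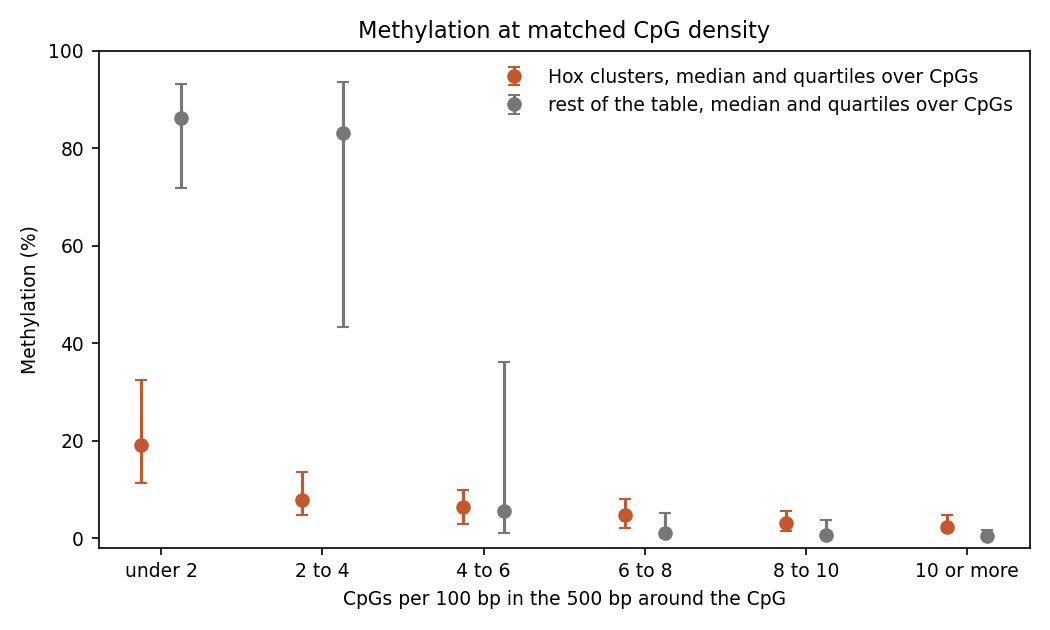
Median methylation (%) and quartiles over CpGs, for the Hox clusters and for the rest of the table, by the number of CpGs per 100 bp in the 500 bp around a CpG. The Hox median falls from 19.2% to 2.28% across the classes, against 86.3% to 0.497% elsewhere.

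Fixed lists of related genes placed the Hox promoters beside their partners. The 373 CpGs counted once over Hox promoters averaged 6.46% (median 4.57%), and 80.7% of them lay below 10%. Promoters of 24 of 34 homeobox genes outside the clusters, such as the Cdx, Dlx and Gbx genes, averaged 4.31% over 374 CpGs (median 2.79%), with 91.2% below 10% and 0 at 50% or above. Promoters of 8 of 9 genes for Hox cofactors, the Pbx, Meis and Pknox proteins that bind DNA with Hox proteins, averaged 6.96% over 156 CpGs (median 0.611%). Those of 22 of 26 regulators of the clusters, Polycomb and trithorax members and retinoic acid receptors among them, averaged 5.26% over 330 CpGs (median 0.666%). All promoters outside the clusters averaged 7.87% (median 0.686%). The lists thus differed in their medians, which were higher for both homeobox lists, and not in that order in their means.

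For maternal diet, animals fed the same diet after weaning were compared between HF and LF fed dams. In offspring fed HF (HF_HF against LF_HF), 64 of 1068 Hox CpGs with a p-value (5.99%) had an unadjusted p below 0.05, against 3.72% over the whole table, 28 higher and 36 lower in animals born from HF fed dams. 0 Hox CpGs passed an FDR of 5% by the test on percent methylation, by limma or by a quasi-binomial model of the reads, and the smallest FDR on percent methylation was 0.822. A count of 0 here does not show that levels were equal. In data simulated at this coverage for this comparison, 1.96% of Hox CpGs changed by 20 percentage points passed the FDR. The simulated spread between mice was not fitted to these data, and few CpGs were changed. How often such differences would pass here is therefore not known. At an unadjusted p below 0.05 limma had 87 Hox CpGs (8.09%, against 4.42% over the table), and the quasi-binomial model 96 (8.99%, against 10.8%), so the Hox share lay above that of the table by limma and below it by the quasi-binomial model. The 36 lower CpGs were 3.37% of those tested, against 2.19% over the table, and 18 of them lay in HoxA, which is 6.79% of its 265. The median difference was -0.181 percentage points over the Hox CpGs and -0.151 over the whole table.

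In offspring fed LF (HF_LF against LF_LF), 39 of 1069 Hox CpGs (3.65%) had an unadjusted p below 0.05, against 3.99% over the whole table. Of these, 21 were higher and 18 lower, against 5759 higher and 3852 lower over the table, and the median difference was 0.0238 percentage points over the Hox CpGs and 0.164 over the table. 0 Hox CpGs passed the FDR on percent methylation, by limma or by the quasi-binomial model, with the lowest FDR on percent methylation at 0.818. Limma had 71 at an unadjusted p below 0.05 (6.60%, against 6.14% over the table) and the quasi-binomial model 78 (7.30%, against 10.3%).

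The comparisons of post-weaning diet used animals born from dams on the same diet. Offspring of LF fed dams (LF_HF against LF_LF) had 73 of 1066 Hox CpGs (6.85%) at an unadjusted p below 0.05, against 4.03% over the whole table. Of these, 50 were higher and 23 lower in animals fed HF, and higher calls made up 4.69% of the Hox CpGs, against 2.22% over the table. The median difference was 0.335 percentage points over the Hox CpGs and 0.0832 over the table. HoxA held 26 of the 73, 23 of them higher (8.71% of its 264). Without the 5 mice under 5000000 reads, which were 2 LF_LF, 1 LF_HF and 2 HF_HF animals, the HoxA count was 14 of 263, 11 of them higher, and the Hox share was 4.98% against 4.06% over the table. This comparison shares the LF_HF animals with that of maternal diet in offspring fed HF, so the HoxA counts of both rest on the same 10 livers. Neighbouring CpGs share reads, so the counts are not of independent sites. 0 Hox CpGs passed the FDR on percent methylation, by limma or by the quasi-binomial model, and the lowest FDR on percent methylation was 0.808. Limma had 85 at an unadjusted p below 0.05 (7.90%, against 4.58% over the table), while the quasi-binomial model had 88 (8.26%, against 10.7%), again a share below that of the table.

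Offspring of HF fed dams (HF_HF against HF_LF) had 40 of 1066 Hox CpGs (3.75%) at an unadjusted p below 0.05, against 4.06% over the whole table. Of these, 24 were higher and 16 lower in animals fed HF, against 3539 higher and 6310 lower over the table. The median difference was 0.137 percentage points over the Hox CpGs and -0.211 over the table. HoxA held 9 of the 40, out of 263 tested. Without the mice under 5000000 reads it held 22 of 263, 12 of them higher. The Hox share was then 4.88%, against 4.09% over the table. A raised HoxA count was thus also seen between groups without LF_HF animals. 0 passed the FDR on percent methylation, by limma (64 at an unadjusted p below 0.05, or 5.95%, against 4.90% over the table) or by the quasi-binomial model (65, or 6.10%, against 10.9%). Over all 40 mice the maternal diet term had 57 of 1076 Hox CpGs (5.30%) at an unadjusted p below 0.05, against 3.96% over the table, with 21 higher and 36 lower in animals born from HF fed dams, against 5086 and 4993. The post-weaning diet term had 61 (5.67%), against 4.34%, with 42 higher and 19 lower in animals fed HF, against 4873 higher and 6172 lower over the table. The interaction of both diets had 64 (5.95%), against 4.18%. The smallest FDR of a Hox CpG was 0.874, 0.857 and 0.868 for these 3 terms.

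Single CpGs showed how such differences looked in the mice. By the test on percent methylation over all mice, the smallest p-value of a Hox CpG belonged to chr6:52154223 in Hoxa5, 363 bp downstream of its start and at base 73 of the printed stretch. HF_HF animals had 0%, 0% and 7.69% as the lowest, median and highest value (mean 2.82% ± 3.69, SD, n = 10), and LF_HF animals 6.25%, 15.4% and 33.3% (17.5% ± 10.2, n = 9). HF_LF animals had 0%, 15.8% and 31.2% (16.3% ± 9.08, n = 10), and LF_LF animals 0%, 5.26% and 31.2% (10.4% ± 10.7, n = 9). HF_HF had the lowest mean and median and LF_LF the next, and the range of HF_HF overlapped those of the other groups. The difference from LF_HF was -14.7 percentage points (SE 3.46, exact permutation p = 0.000292, FDR = 0.822), and that from HF_LF -13.5 (SE 3.10, permutation p = 0.000650, FDR = 0.820). The interaction was -20.6 percentage points (SE 5.71, p = 0.000957 by least squares over all mice with a value, FDR = 0.868). Among its 7 tested neighbours, none over 100 bp away, 6 were also lower in HF_HF than in LF_HF, and 4 of these 6 are on the same strand, where reads can cover both. At chr6:52154236, for example, the group means were 0.385% in HF_HF and 11.2% in LF_HF, but at chr6:52154300 they were 10.5% and 10.1%.

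The largest difference of any Hox CpG in percent methylation over all mice was at chr11:96205914 in the coding exon of Hoxb3 and at base 108 of the printed stretch. LF_HF animals had 13.6%, 38.2% and 50% as the lowest, median and highest value (34.4% ± 15.1, SD, n = 10), and LF_LF animals 6.67%, 16.7% and 33.3% (16.7% ± 8.19, n = 9). The LF_HF animals fell on both sides of a gap, with 6 at 36.4% or above and 4 at 20.8% or below. The difference was 17.8 percentage points (SE 5.67, exact permutation p = 0.00780, FDR = 0.808), and all 6 tested neighbours within 100 bp had the same direction. All 6 are on the strand of this CpG, where reads can cover several of them, so they are not separate measurements of it. HF_LF animals had 21.5% ± 6.78 (n = 10), and HF_HF animals had 18.4% ± 7.49 (n = 8), which was 16 percentage points below LF_HF (SE 5.86, exact permutation p = 0.0173, FDR = 0.822). Of the 6 neighbours, 4 were also lower in HF_HF than in LF_HF. At chr11:96206004, for example, HF_HF had 39.3% and LF_HF 35.7%, the other direction.

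**Figure D4:**
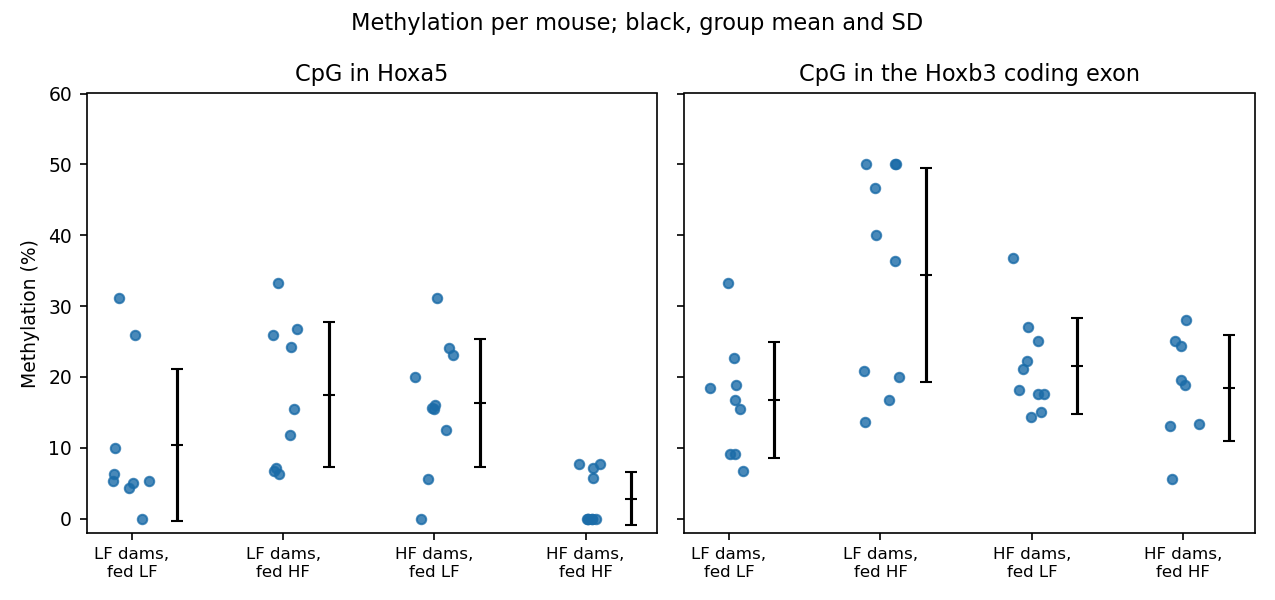
Methylation (%) in each mouse at the Hoxa5 CpG chr6:52154223 and the Hoxb3 CpG chr11:96205914 by diet group, with the group mean and SD in black. HF_HF animals lie at 7.69% or below at Hoxa5, and LF_HF animals spread from 13.6% to 50% at Hoxb3, and all groups compared overlap.

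Other CpGs with the smallest p-values were spread over genes of all positions. In offspring fed HF, a CpG in an untranslated part of Hoxb5 (chr11:96164531) had 0.189% in HF_HF and 4.85% in LF_HF animals (exact permutation p = 0.00310), while a coding CpG of Hoxb1 (chr11:96228236) had 12.5% and 5.94% (exact permutation p = 0.00169). The largest positive difference, from 26.5% to 41.1%, lay 4749 bp downstream of the Hoxc4 start at chr15:102869575 (exact permutation p = 0.0402).

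In offspring fed LF, an intron CpG of Hoxb9 (chr11:96134108) had 7.36% ± 4.26 in HF_LF and 17.2% ± 8.0 in LF_LF animals, a difference of -9.88 (SE 2.87, permutation p = 0.00189). A CpG near Hoxa9 (chr6:52178671) had 6.58% and 1.47% (exact permutation p = 0.00440), and a promoter CpG of Hoxa10 (chr6:52184178) 7.83% and 1.72% (permutation p = 0.00276). The largest positive difference was upstream of Hoxd4 at chr2:74559385, with 38.8% and 28.2%, and it did not exceed the spread between mice (exact permutation p = 0.113).

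In offspring of LF fed dams, a coding CpG of Hoxa3 (chr6:52129248) had 24.7% ± 9.38 in LF_HF and 11.5% ± 6.95 in LF_LF animals, a difference of 13.2 (SE 3.69, permutation p = 0.00277). CpGs upstream of Hoxd10 (chr2:74528257, 2.04% and 7.69%, permutation p = 0.00376) and in Hoxd1 (chr2:74601450, 0% and 3.67%, exact permutation p = 0.00905) differed the other way. At this Hoxd1 CpG the quasi-binomial model gave a p of 1.04e-06, below its 0.000136 and 0.000698 at the Hoxa5 CpG, and without the mice under 5000000 reads the test on percent methylation gave 0.000198, below 0.00186 and 0.00250, so the order of these CpGs depends on the test and the mice. The CpG chr6:52203600 between Hoxa11 and Hoxa13 was also lower in LF_HF, with 6.05% and 14.7% (exact permutation p = 0.0426).

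In offspring of HF fed dams, chr11:96173138 upstream of Hoxb4 had 6.36% in HF_HF and 2.16% in HF_LF animals (exact permutation p = 0.00186), and an intron CpG of Hoxa3 (chr6:52125964) 4.44% and 0.799% (exact permutation p = 0.00594). A coding CpG of Hoxd12 (chr2:74514054) had 21.2% ± 14.8 and 9.15% ± 7.17 (exact permutation p = 0.0184). Without replicate 9 of HF_HF, which had 54.5% from 11 reads, its difference was 7.25 percentage points in place of 12, and 6.95 without the mice under 5000000 reads. The FDR of each CpG named for a comparison was 0.808 to 0.822, and the groups overlapped at all of them. Tested neighbours within 100 bp with the same direction numbered 3 of 9 at Hoxb5, 6 of 12 at Hoxb1, 6 of 11 at Hoxb9 and 7 of 11 at Hoxa10. They were 7 of 15 at Hoxd1, 7 of 15 at chr6:52203600, 1 of 5 at chr11:96173138 and 1 of 3 at Hoxd12. At chr6:52178671 they were 2 of 2, at chr6:52125964 2 of 3, at chr2:74528257 1 of 2, at chr15:102869575 1 of 1 and at chr2:74559385 0 of 1. Without the mice under 5000000 reads, the CpGs chr15:102869575, chr6:52203600 and chr2:74514054 no longer had an unadjusted p below 0.05.

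Averaging neighbouring CpGs in bins of 1000 bp left 0 of 114 Hox bins at an FDR of 5% in any of the 4 comparisons. At an unadjusted p below 0.05 there were 8 bins for maternal diet in offspring fed HF, all lower in HF_HF (7.02%, against 4.80% in either direction and 3.09% lower over the table). There were 9 in offspring fed LF, 2 higher and 7 lower (7.89%, against 5.55% in either direction and 2.13% lower). In offspring of LF fed dams there were 8, all higher in LF_HF (7.02%, against 5.36% in either direction and 2.97% higher), and in offspring of HF fed dams 4 (3.51%, against 5.76%). Without the mice under 5000000 reads there were 13 in offspring of LF fed dams, 11 higher and 2 lower (11.4%, against 5.33% over the table), and with at least 5 CpGs in a bin 5 of 83, all higher (6.02%, against 5.22%). In offspring fed HF they were 8 without these mice, 1 higher and 7 lower. The bins of the first and the third of these comparisons again share the LF_HF animals.

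The bins that hold the named Hoxa5 and Hoxb3 CpGs were picked for those CpGs, and their values are a description. The bin of Hoxa5 had 6.93% in HF_HF, from 4.42% to 11.1% with a median of 6.54%, and 11% in LF_HF, from 5.46% to 15.1% with a median of 12.4%. The difference was -4.12 percentage points (SE 1.22). The Hoxb3 exon bin had 30.3% in LF_HF, from 18.1% to 47.7% with a median of 29.3%, and 17.2% in LF_LF, from 7.92% to 29.5% with a median of 15.6%, a difference of 13.2 (SE 4.27). The groups overlapped in both bins.

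The smallest p of a bin was reached in offspring fed LF near Hoxa9 (chr6:52178000-52178999), with 14.2% in HF_LF and 8.43% in LF_LF (difference 5.81, SE 1.48, permutation p = 0.00092, FDR = 0.880). In offspring of LF fed dams it was a bin of 12 CpGs of the Hoxa3 region (chr6:52127000-52127999), with 13.9% in LF_HF and 9.34% in LF_LF (difference 4.54, SE 1.42, permutation p = 0.00555, FDR = 0.868). For HF_HF against LF_HF and against HF_LF it was the intergenic HoxB bin chr11:96096000-96096999, with 1.60% in HF_HF, 3.76% in LF_HF (exact permutation p = 0.00407, FDR = 0.928) and 2.85% in HF_LF (exact permutation p = 0.0323, FDR = 0.858).

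The mean over each cluster is given by diet group as a description. In HoxA it was 7.61%, 7.99% and 8.78% in the lowest, median and highest LF_LF animal, and 7.71%, 9.11% and 12.6% in LF_HF. HF_LF animals had 7.64%, 8.01% and 8.76%, and HF_HF animals 7.61%, 8.37% and 9.09%. LF_HF was the high group, with 7 of its 10 animals above the highest LF_LF animal, 7 above the highest HF_LF animal and 5 above the highest HF_HF animal. Its mean was 9.34% ± 1.31 (SD), against 8.04% ± 0.353 in LF_LF, 8.12% ± 0.375 in HF_LF and 8.32% ± 0.505 in HF_HF. Replicate 10 of LF_HF had the 12.6% and was among the mice with the fewest reads, and without it the group had 8.99% ± 0.694 (7.71% to 9.87%, n = 9).

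HoxB had 8.35% ± 0.624 in LF_LF, 8.78% ± 0.539 in LF_HF, 8.16% ± 0.418 in HF_LF and 8.53% ± 1.03 in HF_HF. HoxC had 6.63% ± 0.571, 6.70% ± 0.617, 6.61% ± 0.379 and 6.86% ± 0.57, and HoxD 5.81% ± 0.372, 6.21% ± 0.509, 5.65% ± 0.250 and 5.94% ± 0.459 in the same order. LF_HF animals above the highest LF_LF, HF_LF and HF_HF animal numbered 2, 6 and 0 in HoxB, 2, 3 and 1 in HoxC, and 2, 7 and 2 in HoxD. Without the mice under 5000000 reads HF_HF had 8.14% ± 0.529 in HoxB (n = 8). CpGs of intermediate level outside the clusters were also highest in LF_HF. Those with a mean of 10% to 20% had 14.8% in LF_HF against 14.0%, 14.3% and 14.2% in LF_LF, HF_LF and HF_HF, and Hox CpGs of that class 14.6% against 13.3%, 13.4% and 13.7%. The part of such CpGs in the HoxA value was not tested.

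**Figure D5:**
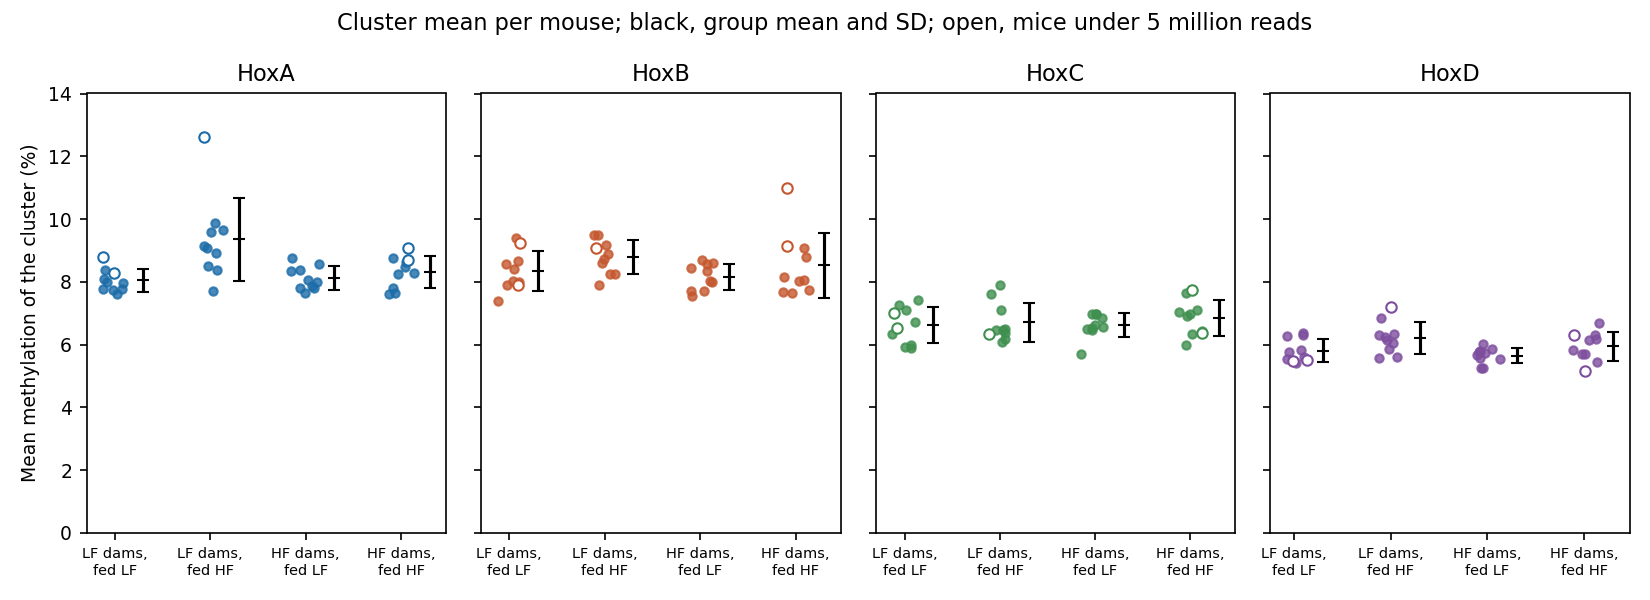
Mean methylation (%) of each cluster in each mouse by diet group, with the group mean and SD in black and open circles for the 5 mice under 5000000 reads. In HoxA the LF_HF animals reach from 7.71% to 12.6%, and in HoxC and HoxD the ranges of the groups overlap.

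Promoter CpGs of the related lists were counted in the same way. At an unadjusted p below 0.05 for maternal diet in offspring fed HF, Hox promoters had 24 of 372 CpGs, cofactors 2 of 126, regulators 12 of 268 and homeobox genes outside the clusters 15 of 364, against 2.63% over all promoter CpGs outside the clusters. In offspring fed LF the counts were 13 of 371, 1 of 130, 10 of 272 and 18 of 365, against 2.66%. For post-weaning diet they were 26 of 370, 4 of 125, 12 of 265 and 16 of 362 in offspring of LF fed dams, against 2.69%, and 8 of 367, 2 of 134, 9 of 277 and 15 of 367 in offspring of HF fed dams, against 2.68%. 0 CpGs of these 4 lists passed an FDR of 5% in the 4 comparisons. The lists were not matched for level, and promoter CpGs outside the clusters had a median of 0.686%, against 4.57% in Hox promoters. Over the table the share for maternal diet in offspring fed HF was 3.72%, and 4.95% among CpGs with a mean of 5% to 95%.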

How the data were processed

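RRBS libraries of 40 livers were analysed, 10 per combination of diets, and mice were assigned from the sample labels. The authors cut DNA with MspI, selected fragments of 150 to 600 bp, and aligned bisulfite reads to mm9 with Bismark (version not given in the sources used here). They deposited, per CpG cytosine and mouse, the count of methylated reads, the total count and the methylated fraction, without normalization, with totals and fractions missing below 10 reads. There were 0 columns of other samples. The counts were used and the deposited fraction served as a check.

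Percent methylation was computed per CpG and mouse. CpGs with 10 or more reads in 36 or more mice were tested by a two-sided Student's t-test, which the study used beside a Wilcoxon rank test, with Benjamini-Hochberg FDR over all CpGs tested in the table, and diet terms by least squares. CpGs without variance had no p-value, so the number tested varies. Cluster and bin means per mouse were taken as mean deviations from the CpG means, so that missing CpGs did not shift a mouse. For named CpGs and bins a two-sided permutation test enumerated all splits of the mice with a value. The annotation was GENCODE vM1. Depth is given in the report, and intervals from reads would cover counting error only.

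Named were the Hox genes, of which 1 is not reported here, the highest, lowest and most variable bin of each cluster, neighbouring CpGs at or around 50%, and for each comparison the 3 CpGs and the bin with the smallest p and the CpG with the largest difference in each direction. CpGs above 50%, the Hoxa5 and Hoxb3 bins, and the printed stretches were chosen after their values were seen. The windows, lists and tests were chosen with earlier results of these data known. Alternatives were a quasi-binomial model, limma on log2 ratios of reads, the exact rank-sum test, other coverage and level filters, summed strands, a covariate of reads and other bins. Leaving out the LF_HF animal with the highest HoxA mean, the HF_HF animal with the highest Hoxd12 value, and the mice under 5000000 reads, were added after seeing the data. Tests were checked on simulated data for maternal diet in offspring fed HF. Of Hox CpGs changed by 10, 20 and 30 percentage points, 0%, 1.96% and 45.2% passed the FDR, with a spread between mice not fitted to these data. Python 3.11.15, numpy 2.4.6, pandas 2.3.3, scipy 1.17.1, R 4.3.3 and limma 3.58.1 were used.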

Additional observations from a re-analysis of the deposited data

Results flagged for a closer look

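In 14 of 140 groups of mice looked at, 1 animal stood far from the others by Dixon's criterion, which chance alone meets in about 1 in 20 groups of normally distributed values. Some of these groups hold CpGs with values at 0%, or CpGs and bins picked for a small p, a large difference or a wide spread, so their number cannot be set against that rate. Among cluster means, replicate 10 of LF_HF had 12.6% in HoxA (others 7.71% to 9.87%), replicate 9 of HF_HF 11% in HoxB (others 7.63% to 9.15%) and replicate 5 of HF_LF 5.71% in HoxC (others 6.45% to 6.98%). The first 2 had 3488092 and 2969907 reads at listed CpGs, and the last 15680735.

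Among bins, replicate 5 of HF_HF had 3.87% at chr11:96096000-96096999 (others 0.770% to 1.95%), the bin with the smallest p in the comparisons of that group, and replicate 8 of HF_HF had 5.69% at chr11:96173000-96173999 (others 1.2% to 2.89%). Replicate 6 of HF_HF was low in the Hoxb3 exon bin with 7.85% (others 18.9% to 27.1%). Replicate 8 of LF_HF had 25% at chr15:102846000-102846999 (others 4.68% to 13.5%), and replicate 10 of LF_HF had 5.45% in the lowest HoxD bin near Hoxd8 (others 0% to 2.42%).

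Among single CpGs, replicate 9 of HF_HF had 20% near Hoxa9 at chr6:52178671 (others 0% to 10.4%) and 54.5% in Hoxd12 at chr2:74514054 (others 7.14% to 27.3%). At the Hoxd12 CpG replicate 7 of LF_LF was low with 0% (others 9.09% to 16.2%). Replicate 8 of LF_LF had 7.69% at the Hoxa10 promoter CpG (others 0% to 3.57%), replicate 8 of HF_HF 26.7% at the Hoxb9 intron CpG (others 3.28% to 14.3%), and replicate 2 of HF_HF 1.89% at the Hoxb5 CpG, where the others were all at 0%.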

How the results depend on the processing

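0 Hox CpGs passed an FDR of 5% under the alternatives for CpGs in which it was computed, all but the rank-sum test (run on the Hox CpGs alone). With other bin settings or the mice left out, 0 Hox bins passed it. For CpGs this says little about stability, since few simulated differences of 20 percentage points passed it. That simulation covered 1 comparison, with a spread between mice not fitted to these data, and bins were not simulated. Counts at an unadjusted p below 0.05, in the order maternal diet in offspring fed HF and fed LF, then post-weaning diet in offspring of LF and of HF fed dams, were 64, 39, 73 and 40. Some alternatives moved a count by over 1.5 times. With at least 20 reads, 17 Hox CpGs were left and the counts were 0, 0, 0 and 0, against 3.66%, 12.1%, 18.8% and 3.84% of the CpGs tested in the table. With CpGs covered in all 40 mice (162) they were 10, 6, 15 and 5 (6.21%, 3.70%, 9.32% and 3.09%, against 3.94%, 4.74%, 5.10% and 4.2%), and with a mean of 5% to 95% (559) 39, 23, 48 and 22 (6.98%, 4.11%, 8.59% and 3.94%, against 4.95%, 5.45%, 5.60% and 5.66%), with fewer CpGs tested in each. The quasi-binomial model gave 78 in offspring fed LF and 65 in offspring of HF fed dams, limma 71 and 64, and all listed CpGs 63 in offspring fed LF (4.15%, against 3.82%). The cause was not tested for these models. The quasi-binomial model had 6.10% to 8.99% of Hox CpGs and 10.3% to 10.9% of the table below 0.05, a Hox share below that of the table in all 4 comparisons. The counts stayed within 1.5 times with the rank-sum test, summed strands, the covariate of reads, and without LF_HF replicate 10, HF_HF replicate 9 or the mice under 5000000 reads. For bins, a minimum of 5 CpGs gave 5, 5 and 2 in the last 3 comparisons, in place of 9, 8 and 4, and leaving out the mice under 5000000 reads gave 13 in offspring of LF fed dams. Over CpGs covered in all 40 mice the cluster means were 10.9% in HoxA, 12.2% in HoxB, 5.57% in HoxC and 7.65% in HoxD, so the order of the clusters depends on which CpGs are measured. For the named CpGs, 134 of the values under alternatives kept their direction and side of 0.05, 8, at chr6:52203600, chr15:102869575 and chr2:74514054, kept the direction only and 0 changed direction. Many of the 134 could not change. Coverage and level filters, summed strands and leaving out a mouse without a value often repeated the main value exactly. Limma values were not in this count. No paired analysis was possible because the labels give each mouse a number of its own and no litter.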
